A study of Mus musculus with 11 samples.

Results

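The 8 genes Bcl11b, Fezf2, Sox5, Tbr1, Foxp2, Tle4, Zfpm2 and Crym are known for marking or specifying the deep layer neurons of the cerebral cortex. All probes that the platform annotation pairs with these symbols were taken, which gave 24 of the 45281 probes of the array and 8 of its 19057 gene symbols. They were measured in sorted cortical cells, E16 Mut on 6 bead arrays at embryonic day 16 and E13 Mut on 5 at embryonic day 13. The paper calls these cells intermediate progenitors (IPs), the basal progenitors of the mouse cortex. IPs divide away from the ventricle and express the T-box factor TBR2, encoded by Eomes. Both groups carried the conditional Tbr2 knockout, and the methods describe cortical knockouts as Tbr2fl/fl mice crossed with Emx1-Cre, a driver that acts in progenitors of the dorsal telencephalon and not in IPs alone. Cells were sorted by EGFP from a Tbr2-EGFP reporter, so the sort selected cells with reporter activity whether or not they made TBR2 protein. By the labels the groups differ in age, and no value here measures the effect of the mutation, since the control arrays were not analysed.

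Deep layer neurons are the first excitatory neurons of the cortex to be born, and upper layer neurons follow. FEZF2 is a zinc finger repressor that promotes the subcerebral projection neurons of layer 5, and TLE4 is a corepressor that FEZF2 can recruit. BCL11B, also called CTIP2, acts downstream of FEZF2 in the outgrowth of their axons. SOX5, TBR1 and ZFPM2 (FOG2) favor the corticothalamic neurons of layer 6, SOX5 and TBR1 in part by holding Fezf2 down and ZFPM2 by holding BCL11B down. FOXP2 is a forkhead repressor found in layer 6, and CRYM is a thyroid hormone binding protein found in neurons that project below the cortex.

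Promoter sequence is shown for 3 of the genes, Fezf2 and Tle4 because both were lower at E16 and Tbr1 because it was not called and its window held the most kinds of motif. The windows are the 250 bases before a transcription start in the RefSeq table (build GRCm38.p6), which held 5 of the 8 genes in 6 windows, with a pair of starts for Tle4. Fezf2 lies at chr14:12345866-12346115 on the minus strand, the upstream Tle4 start at chr19:14598184-14598433 on the minus strand and Tbr1 at chr2:61804203-61804452 on the plus strand. Capitals mark matches on either strand to the letters of a Sox site (ACAAT), an E-box (CAGNTG) or a CCAAT box (CCAAT).
Fezf2: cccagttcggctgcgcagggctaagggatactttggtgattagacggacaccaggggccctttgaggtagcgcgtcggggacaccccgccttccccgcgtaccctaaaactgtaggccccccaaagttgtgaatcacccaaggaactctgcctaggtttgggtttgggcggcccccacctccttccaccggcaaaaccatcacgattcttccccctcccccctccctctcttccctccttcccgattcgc
Tle4: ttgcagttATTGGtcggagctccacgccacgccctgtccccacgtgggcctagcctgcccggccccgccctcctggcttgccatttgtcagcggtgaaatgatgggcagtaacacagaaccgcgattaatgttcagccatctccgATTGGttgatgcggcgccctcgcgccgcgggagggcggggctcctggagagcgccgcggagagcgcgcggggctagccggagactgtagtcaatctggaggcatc
Tbr1: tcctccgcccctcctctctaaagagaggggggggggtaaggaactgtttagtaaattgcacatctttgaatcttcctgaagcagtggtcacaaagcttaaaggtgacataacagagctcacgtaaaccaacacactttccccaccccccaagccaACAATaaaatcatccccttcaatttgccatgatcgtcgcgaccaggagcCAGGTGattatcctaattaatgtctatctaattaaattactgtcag
The Fezf2 window, with 61.2% G and C, held none of these letters, and neither did that of Bcl11b. The Tle4 window shown, with 65.2% G and C, held 2 CCAAT boxes on the reverse strand, 242 and 105 bases before the start, and 33.8% of the 32851 windows in the table hold at least 1. The window of the downstream Tle4 start, with 70.8% G and C, held a Sox site on the reverse strand 71 bases before it. The Tbr1 window, with 45.2% G and C against a median of 52.4% over all windows, held 1 Sox site and 1 E-box, letters found in 27.7% and 44.8% of windows. No member window held the T-box letters TCACACC, which 3.33% of all windows contain, nor the TATA box letters TATAAA, which 12.4% contain. These matches describe the letters and not binding.

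Probes had to be detected on every mutant array (detection p under 0.05), which kept 19 of the 24 member probes and 16411 probes in all. Every gene kept at least 1 probe. Bcl11b had 4 tested probes of 4, Fezf2 2 of 2, Sox5 6 of 6, Tbr1 and Crym 1 of 1, Tle4 2 of 3, Zfpm2 2 of 3 and Foxp2 1 of 4. Signals are background-subtracted brightness in arbitrary units, quantile-normalized here, and their levels are set against each other only within a probe. A probe was called at a limma adjusted p under 0.05, adjusted over all 16411 probes, and a change over 1.5-fold, and log2 fold changes are E16 over E13. Between 19757 and 20854 probes were detected per array.

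Of the deep layer genes, Zfpm2, Tle4, Foxp2 and Fezf2 were lower in the sorted E16 Mut cells and Crym was higher, each by at least 1 probe whose stages did not overlap. For Sox5, 1 dim probe of 6 was higher at E16, and neither Bcl11b nor Tbr1 had a called probe. Of the 19 tested probes 6 were called, or 31.6%, against 11.3% of all tested probes. These were 4 lower at E16, or 21.1% against 6.09% of all, and 2 higher, or 10.5% against 5.17%. Stages did not overlap for 5 of the 19 probes, or 26.3%, against 11.7% of all. Probes of 1 gene share its transcript and are not independent. By the brightest tested probe, 4 of the 8 genes were called, against 12.3% of the 8967 genes tested. Of these 3 were lower, against 6.98% of all genes, and 1 was higher, against 5.27%, and the median log2 fold change was -0.31 over the 8 genes and 0.00 over all genes. In bulk RNA of sorted cells, fewer cells of a type and less RNA per cell cannot be told apart.

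**Figure D1:**
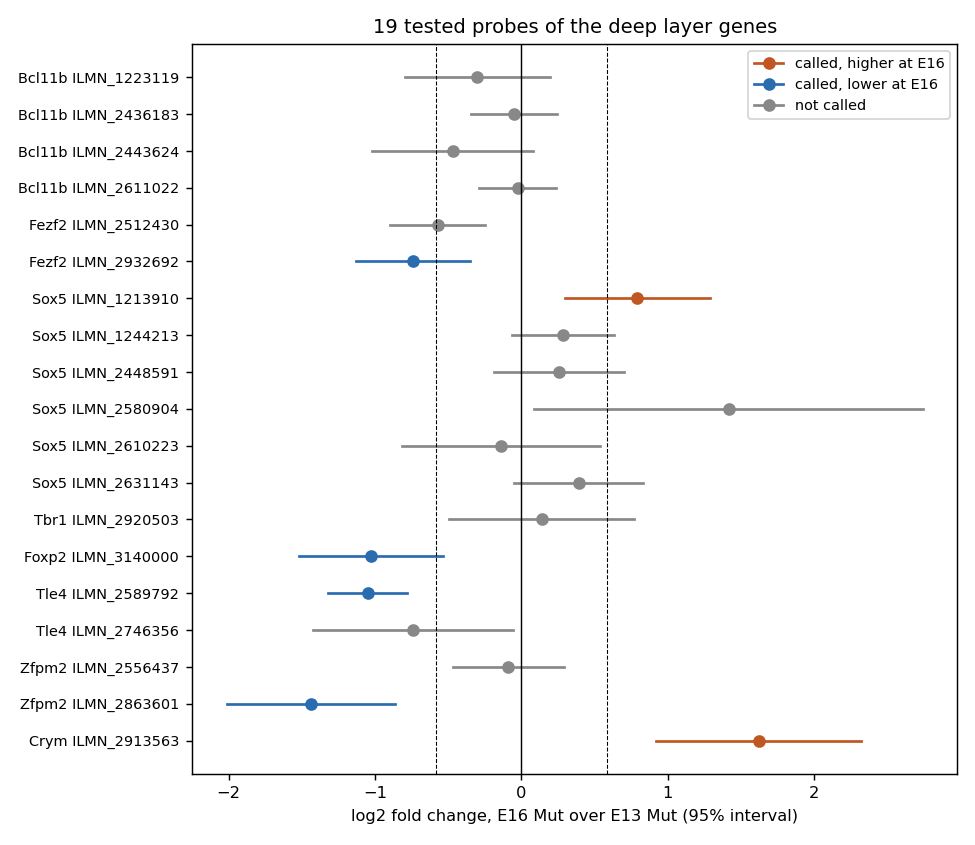
Log2 fold change of each tested probe of the 8 genes, E16 Mut over E13 Mut, with its 95% interval from limma; dashed lines mark a change of 1.5-fold. The called probes of Zfpm2, Tle4, Foxp2 and Fezf2 lie left of 0, those of Crym and Sox5 right of it, and all 4 Bcl11b probes and the Tbr1 probe have intervals that include 0.

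Zfpm2, the layer 6 cofactor of GATA factors, showed the largest decrease among the member probes. Its probe ILMN_2863601 had normalized signals of 265 at the lowest, 626 at the median and 874 at the highest on the E16 arrays, against 1810, 946, 1681, 1682 and 1907 on the E13 arrays 37, 40, 61, 64 and 65. All E16 arrays lay below all E13 arrays, with E16 array 80 lowest of its stage and E13 array 40 lowest of its own. The means were 613 ± 210 at E16 (SD, n = 6) and 1605 ± 381 at E13 (SD, n = 5), a log2 fold change of -1.44 ± 0.267 (SE), with a limma adjusted p of 0.00201 and a two-sided exact permutation p of 0.00433, the smallest these arrays can give. The log2 fold change was -1.22 without E16 array 80, -1.61 without E13 array 40 and -1.39 without both. The second tested probe, ILMN_2556437, is paired with another cDNA record and was dim, with 22.4 ± 2.62 at E16 and 24.1 ± 5.16 at E13 (SD, n = 6 and 5) and an adjusted p of 0.770 from limma, and another, ILMN_1255116, was detected on 0 of the 11 arrays.

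Tle4, the Groucho family corepressor, had the smallest adjusted p of the members. Probe ILMN_2589792 ran from 1354 through a median of 1479 to 1859 on the E16 arrays, against 3485, 2314, 2970, 3759 and 3370 on E13 arrays 37, 40, 61, 64 and 65. The stages did not overlap, and array 40 was again the lowest at E13. Means were 1524 ± 194 at E16 and 3180 ± 561 at E13 (SD, n = 6 and 5), with a log2 fold change of -1.05 ± 0.126 (SE), with a limma adjusted p of 6.66e-05 and an exact permutation p of 0.00433. A dimmer Tle4 probe, ILMN_2746356, paired with the same mRNA, overlapped between stages at 62.7 ± 21.7 for E16 and 108 ± 47.9 for E13 (SD, n = 6 and 5), and was not called (log2 fold change -0.74, limma adjusted p = 0.127). The remaining Tle4 probe, ILMN_3011214, was detected on 5 of 6 arrays at E16 and 5 of 5 at E13 and was not tested.

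Fezf2 was bright, and its pair of probes gave decreases on either side of the 1.5-fold threshold. Probe ILMN_2932692 had 1042, 1771 and 2321 as its lowest, median and highest signals at E16, against 3060, 2519, 3011, 2804 and 2693 on E13 arrays 37, 40, 61, 64 and 65. Every E16 array was below every E13 array. Its means of 1754 ± 521 at E16 and 2817 ± 224 at E13 (SD, n = 6 and 5) gave a log2 fold change of -0.74 ± 0.182 (SE), with a limma adjusted p of 0.0121 and an exact permutation p of 0.00433. The brighter probe, ILMN_2512430, averaged 7544 ± 1861 at E16 and 10992 ± 1292 at E13 (SD, n = 6 and 5). Its log2 fold change of -0.57 passed the adjusted p (0.0177 from limma) and not the fold threshold, which stands at 0.58 on the log2 scale, and its stages overlapped through E16 array 15 at 9983 and E13 array 64 at 9374.

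Foxp2, the layer 6 forkhead factor, was dim. The tested probe ILMN_3140000 had normalized signals of 17.9, 28.8 and 35.7 as lowest, median and highest at E16, against 51.9, 40.02, 48.1, 65.5 and 73.0 on E13 arrays 37, 40, 61, 64 and 65. No array of one stage reached the range of the other. Means were 27.6 ± 7.52 at E16 and 55.7 ± 13.4 at E13 (SD, n = 6 and 5), and the log2 fold change was -1.03 ± 0.229 (SE), with a limma adjusted p of 0.00667 and an exact permutation p of 0.00433. Of the other 3 Foxp2 probes, ILMN_2659660 was detected on 4 of 6 arrays at E16 and 5 of 5 at E13, ILMN_2659663 on 2 of 6 at E16 and 4 of 5 at E13, and ILMN_2701613 on 0 at either stage. The called probe did not pass a detection p under 0.01 on all arrays, so its call rests on signals near the detection limit.

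Crym moved the other way from these 4 genes. Its only probe, ILMN_2913563, read 92.2, 116 and 193 as lowest, median and highest at E16, against 28.5, 22.2, 88.1, 57.5 and 32.5 on E13 arrays 37, 40, 61, 64 and 65. The stages came close without overlapping, between E16 array 91 at 92.2 and E13 array 61 at 88.1. Means of 128 ± 39.2 at E16 and 45.8 ± 27.2 at E13 (SD, n = 6 and 5) gave a log2 fold change of 1.62 ± 0.327 (SE), with a limma adjusted p of 0.00354 and an exact permutation p of 0.00433. Without E13 array 61 the log2 fold change was 1.90, and without E13 array 40, the lowest, it was 1.41. This probe also did not pass the stricter detection p on all arrays.

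**Figure D2:**
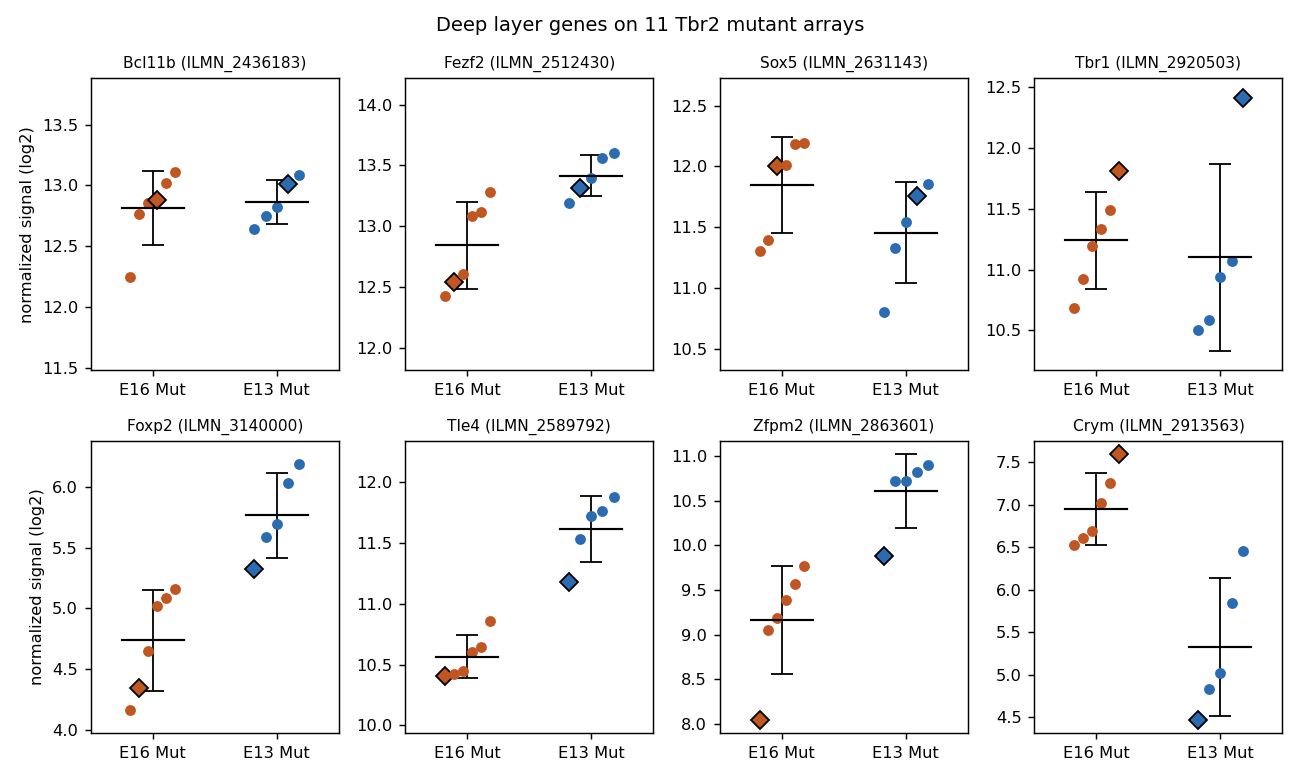
Normalized log2 signal of the brightest tested probe of each gene on each array, E16 Mut left and E13 Mut right, with the mean and SD of each stage as bars; diamonds are E16 array 80 and E13 array 40. Zfpm2, Tle4, Foxp2 and Crym separate the stages without overlap, Fezf2 overlaps by this probe, and Tbr1 reads 5449 on E13 array 40, far above the other E13 arrays.

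Sox5, the SoxD factor of early deep layer neurons, gave different readings by probe. The 3 brightest probes, ILMN_2631143, ILMN_2448591 and ILMN_1244213, averaged 3797 ± 954, 3438 ± 971 and 1184 ± 257 at E16 (SD, n = 6), against 2898 ± 762, 2802 ± 539 and 962 ± 162 at E13 (SD, n = 5). Their log2 fold changes of 0.39, 0.26 and 0.29 were within the spread between arrays, with limma adjusted p of 0.212, 0.426 and 0.245. The stages overlapped for all 6 Sox5 probes. The called probe, ILMN_1213910, was dim, with a lowest signal of 48.2, a median of 82.1 and a highest of 123 at E16, against 40.6, 54.4, 44.6, 34.4 and 53.7 on E13 arrays 37, 40, 61, 64 and 65. Only E16 array 95 lay within the E13 range. Its log2 fold change was 0.79 ± 0.232 (SE), with a limma adjusted p of 0.0295 and an exact permutation p of 0.0173, and the call was lost in 10 of 23 other settings, among them without E13 array 64 (0.69, adjusted p = 0.0765).

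ILMN_2580904, a Sox5 probe paired with a cDNA record other than the RefSeq mRNA, varied most between arrays. At E16 it read 105 at the lowest, 191 at the median and 363 at the highest, against 126, 524, 35.9, 32.0 and 42.0 on E13 arrays 37, 40, 61, 64 and 65. E13 array 40 thus exceeded every E16 array, while E13 arrays 61, 64 and 65 lay below all of them. The log2 fold change of 1.42 ± 0.618 (SE) had a limma adjusted p of 0.133, and without E13 array 40 it was 2.10 with an adjusted p of 0.00373. Within stages, 99.7% of tested probes had a smaller SD than this probe. The remaining probe, ILMN_2610223, averaged 199.8 ± 80.9 at E16 and 207 ± 57.1 at E13 (SD, n = 6 and 5; adjusted p = 0.801 from limma).

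**Figure D3:**
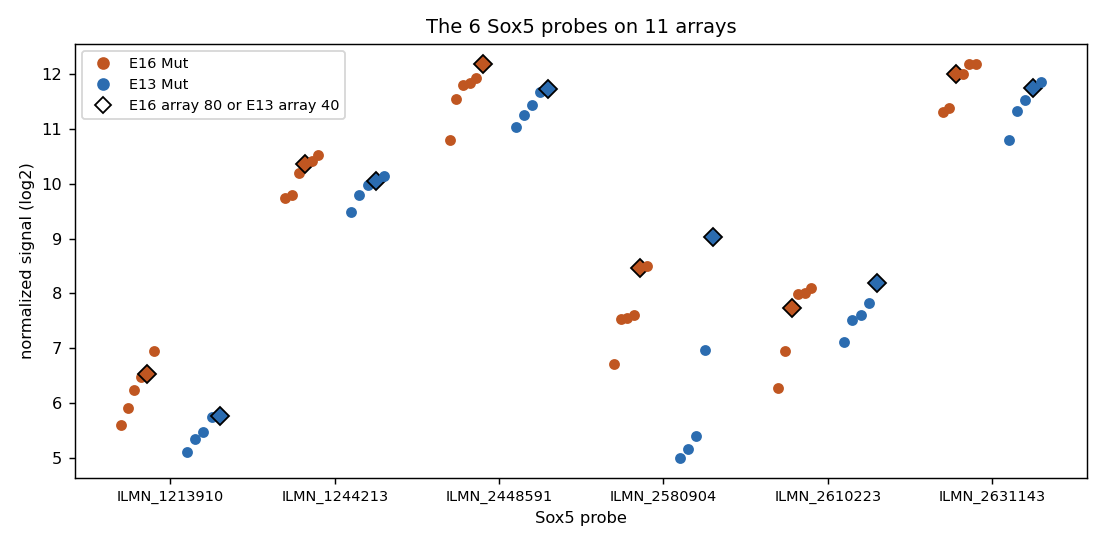
Normalized log2 signal of the 6 Sox5 probes on each array, E16 Mut left of E13 Mut within each probe; diamonds are E16 array 80 and E13 array 40. The 6 probes overlap between stages. ILMN_2631143, ILMN_2448591 and ILMN_1244213 overlap in part and were not called. Their median E16 signals of 4108, 3624 and 1246 lay above their highest E13 signals of 3705, 3392 and 1132. ILMN_2580904 overlaps through E13 array 40 at 524 and E13 array 37 at 126.

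Bcl11b and Tbr1 had no called probe. The 2 bright Bcl11b probes had close levels, ILMN_2436183 with 7310 ± 1381 at E16 and 7487 ± 950 at E13 and ILMN_2611022 with 5533 ± 930 at E16 and 5575 ± 550 at E13 (SD, n = 6 and 5). Their log2 fold changes were -0.05 with a 95% interval of -0.34 to 0.24, and -0.03 with an interval of -0.29 to 0.24, so a change of 1.5-fold lies outside both intervals. The other 2 probes, ILMN_1223119 and ILMN_2443624, averaged 565 and 594 at E16 against 677 and 806 at E13. Their log2 fold changes were -0.30 (interval -0.80 to 0.20) and -0.47 (interval -1.02 to 0.08), with adjusted p of 0.408 and 0.231 from limma. Both of these intervals include a 1.5-fold decrease. E16 array 95 was the lowest of its stage for all 4 Bcl11b probes, at 273, 4850, 291 and 3768.

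Tbr1, the T-box factor that follows Tbr2 in the IP to neuron sequence, had 1644, 2461 and 3586 as lowest, median and highest signals of probe ILMN_2920503 at E16, against 1451, 5449, 2144, 1538 and 1962 on E13 arrays 37, 40, 61, 64 and 65. Array 40 was above all 10 other arrays, and the remaining E13 arrays overlapped the lower E16 arrays. The means were 2496 ± 693 at E16 and 2509 ± 1669 at E13 (SD, n = 6 and 5), with a log2 fold change of 0.14 (95% interval -0.50 to 0.77, adjusted p = 0.791 from limma). Without E13 array 40 the log2 fold change was 0.46 and still not called (adjusted p = 0.129). The interval includes changes of 1.5-fold upward, so these arrays do not show that Tbr1 was level between stages.

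Within stages, the arrays did not shift all 8 genes alike. E16 array 80 showed Tbr1 at 0.68 and Zfpm2 at -1.34 from the mean of the other arrays of its stage, with Fezf2 at -0.36 and Foxp2 at -0.47, and Crym at 0.77. E13 array 40 was 1.64 above the mean of the other E13 arrays for Tbr1 on the log2 scale and 0.38 above for Sox5, and it was below that mean for Crym (-1.07), Zfpm2 (-0.90), Foxp2 (-0.55) and Tle4 (-0.55). Its median absolute deviation was 0.55 over the 8 genes, against 0.20 over all tested probes. The 8 genes also deviated more than all tested probes on the other arrays, except E13 array 65 (0.17 against 0.20). E16 array 80 had 0.42 against 0.19 and E16 array 91 had 0.40 against 0.19. On E16 array 80 and E13 array 40 Tbr1 was thus high where Zfpm2 and Foxp2 were low, while Crym went opposite ways. E16 array 95 was low for Bcl11b (-0.68) and Sox5 (-0.55). E16 array 91 was low for Foxp2 (-0.69), Sox5 (-0.65), Crym (-0.51) and Fezf2 (-0.50) and above the mean for Tbr1 (0.30). E13 array 61 was high for Crym (1.42), and E13 array 64 was low for Sox5 (-0.82).

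**Figure D4:**
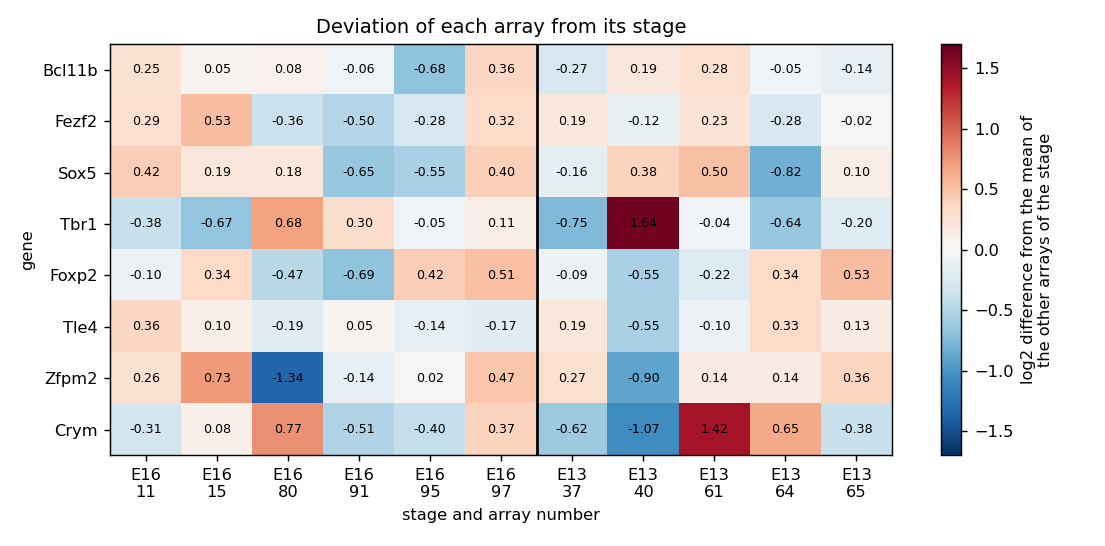
Difference of each array from the mean of the other arrays of its stage, on the log2 scale, for the brightest tested probe of each gene; E16 Mut arrays are left of the line and E13 Mut arrays right. The highest value is Tbr1 on E13 array 40 at 1.64 and the lowest is Zfpm2 on E16 array 80 at -1.34.

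Of 8 tested relatives of the 8 genes by sequence family 2 were higher at E16 and 0 lower, with a median log2 fold change of 0.32. Of all genes tested, 5.27% were higher and 6.98% lower. The other 4 on the array were not tested because they were not detected on every array, so the count leaves out genes that were low at 1 stage. Fezf1, the close relative of Fezf2, was detected on 1 of 6 arrays at E16 and 5 of 5 at E13, Tle6 on 6 of 6 at E16 and 3 of 5 at E13, Sox13 on 3 of 6 at E16 and 1 of 5 at E13, and Tbx21 on 0. The 2 relatives called higher, Tle2 and Tle3, are Groucho corepressors like Tle4. Tle2 averaged 287 ± 82.5 at E16 and 86.9 ± 30.6 at E13 (SD, n = 6 and 5), a log2 fold change of 1.76 with a limma adjusted p of 0.000301, and Tle3 183.7 ± 28.7 at E16 and 97.4 ± 24.99 at E13, a log2 fold change of 0.94 with an adjusted p of 0.00246. Tle1, the remaining tested family member, had 0.18 and was not called, and the difference between these genes and Tle4 was not tested. Bcl11a (0.39), Foxp4 (0.38), Foxp1 (0.25), Sox6 (-0.64) and Eomes (-0.43) were not called. The Eomes probes averaged 1951 ± 558 (ILMN_1251446) and 757 ± 322 (ILMN_2570496) at E16, against 2534 ± 172 and 1217 ± 211 at E13 (SD, n = 6 and 5), and without control arrays these values do not check the knockout.

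Among 14 tested regulators and partners of the members, 1 was lower and 1 higher at E16, a share near the 12.3% called of all tested genes. Neurog1, a proneural bHLH factor, averaged 39.9 ± 10.4 at E16 and 90.4 ± 26.9 at E13 (SD, n = 6 and 5; log2 fold change -1.17, adjusted p = 0.00190 from limma), and Nfib, a nuclear factor I protein, was higher by 0.66 on the log2 scale (adjusted p = 2.22e-05 from limma). The NuRD subunits, chromatin partners of BCL11B, were not called, Chd4 at -0.41, Rbbp7 at -0.40, Hdac2 at -0.03 and Mta2 at 0.12. Of 6 known targets of TBR1 or FEZF2, 2 were lower and 1 higher, against 6.98% and 5.27% of all tested genes. Reln, the secreted glycoprotein of Cajal-Retzius cells and a TBR1 target, had a log2 fold change of -2.35, and Cntnap2, a neurexin family protein, one of -1.97. Grin2b, an NMDA receptor subunit that TBR1 activates, was higher by 1.49, while Auts2 (0.14), Ephb1 (0.09) and Slc17a7 (-0.40) were not called.

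Other genes of deep layers and the subplate, the transient zone below layer 6, were read beside the members. Of 19 on the array, 12 were tested, since the others had no probe detected on every array. Rbp4, Pcp4, Tcerg1l, Syt6, Cplx3 and Moxd1 were detected on 0 arrays by their brightest probe. S100a10 was detected on 5 of 6 at E16 and 5 of 5 at E13. Of the 12 tested, 5 were lower and 1 was higher at E16, against 6.98% and 5.27% of all tested genes. Their median log2 fold change was -0.41. Rprm, a p53-induced cell cycle regulator that marks early deep layer neurons, averaged 3125 ± 296 at E16 and 8034 ± 758 at E13 (SD, n = 6 and 5; log2 fold change -1.36, adjusted p = 1.12e-06 from limma). Nxph4, a neurexophilin of the subplate, was lower by -1.47 and Otx1, a homeobox factor of layers 5 and 6, by -1.02. The other 2 called lower were Ntsr1 at -0.99 and Etv1 at -0.90, and Ldb2, a LIM domain binding protein of subcerebral neurons, was higher by 1.46. For Nxph4 and Ntsr1 the stages overlapped. Parm1 (-0.51), Igfbp4 (-0.31), Ppp1r1b (0.09), Nr4a2 (0.19), Lpar1 (0.22) and Crim1 (0.64) were not called.

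Of 7 tested upper layer transcription factors 5 were higher at E16 and 0 lower, against 5.27% and 6.98% of all tested genes. Their median log2 fold change was 1.12. Cux2 (1.53), Mef2c (1.498) and Pou3f1 (1.29) led them, followed by Pou3f3 (1.12) and Cux1 (0.78), while Rorb (0.38) and Lhx2 (-0.49) were not called. The difference between the deep layer and the upper layer lists was not tested. Layer membership was taken from the mature cortex, and some of these genes are also used by progenitors.

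**Figure D5:**
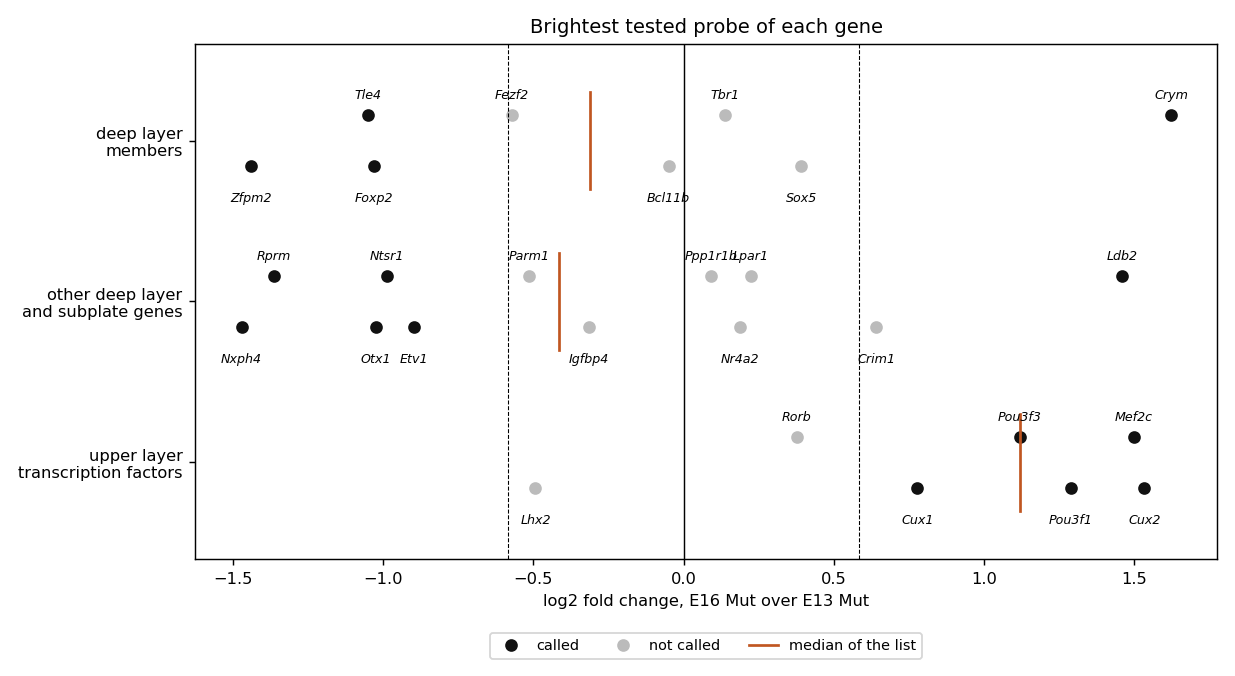
Log2 fold change, E16 Mut over E13 Mut, of the brightest tested probe of each gene in 3 lists; black points are called, grey points are not, orange bars are list medians and dashed lines mark 1.5-fold. The deep layer members span -1.44 to 1.62 with a median of -0.31, the other deep layer and subplate genes have a median of -0.41 and the upper layer factors one of 1.12.

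The genes with the profile most like each member over the 11 arrays were found by Pearson correlation of normalized log2 signal, given as a description, since all points share arrays and the stage difference. Tle4 was followed most closely by Haspin (r = 0.98) and Foxm1 (r = 0.98), a mitotic kinase and a transcription factor of dividing cells. Zfpm2 was followed by Fam122b (r = 0.98) and Trim36 (r = 0.98), Fezf2 by Clgn (r = 0.98) and Cep128 (r = 0.96), Foxp2 by Mtmr14 (r = 0.94) and Fat1 (r = 0.94), and Crym by Gucy1a1 (r = 0.93) and Sema7a (r = 0.93). For the genes not called by their brightest probe, apart from Fezf2, the closest were Spin2c (r = 0.90) and Gstz1 (r = 0.89) for Tbr1, Prnp (r = 0.90) and Abi1 (r = 0.89) for Sox5, and Gramd4 (r = 0.85) and Mtmr4 (r = 0.83) for Bcl11b.

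Markers of other cells moved with stage as well. All 8 deep layer genes, 8 of 9 IP markers and 7 of 9 pan-neuronal markers were detected on every array of both stages. Of 7 tested pan-neuronal markers, 1 was called, Neurod6 (0.98), where 12.3% of all tested genes were called. The summed signal of this list was 32270 to 49108 at E16 against 36845 to 51353 at E13. Snap25 and Nefl were detected on 0 arrays. Stmn2 averaged 10385 ± 998 at E16 and 10839 ± 828 at E13, and Tubb3 57.0 ± 9.48 and 62.2 ± 14.3 (SD, n = 6 and 5). Map2 had a log2 fold change of -0.01. Rbfox3 (-0.54), Neurod2 (0.47) and Dcx (0.31) passed the limma adjusted p (0.0173, 0.00791 and 0.0383) and not the fold threshold. The stages did not overlap for Rbfox3 and overlapped for Neurod2 and Dcx. The sorted cells thus carried neuronal RNA, and the deep layer signals cannot be assigned to progenitors alone. Summed IP markers were 14446 to 24574 at E16 against 23112 to 30844 at E13. The lowest was E16 array 80, on which Zfpm2 was low and Tbr1 high, and the next E16 array read 20027. Bright genes weigh most in such sums, and Gadd45g, with the highest mean of the tested IP markers, had a normalized signal of 4672 on E16 array 80. Of 8 tested IP markers, Dll3 (-1.64) and Dll1 (-1.24) were lower and Sstr2 (1.08) higher. For this list and those below, 6.98% of all tested genes were lower and 5.27% higher. The radial glia markers Pax6, detected on 6 of 6 arrays at E16 and 4 of 5 at E13, and Hes1, on 3 of 6 and 5 of 5, were not tested. Of 6 tested radial glia markers, Vim (-1.77) and Nes (-0.71) were lower and Slc1a3 (1.58) was higher, the sum being 1805 to 2607 at E16 against 3041 to 5078 at E13. Cajal-Retzius markers fell by the most, with 3 of 4 tested lower, a median of -2.66 and sums of 1570 to 3359 at E16 against 7178 to 10954 at E13. Reln, called lower here, is the same probe already counted among the targets. Interneuron markers had 0 of 2 tested called and erythroid markers 0 of 1. Their part in the results for the deep layer genes was not tested.

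E13 array 64 stood apart in blood, vessel and interneuron markers. Summed erythroid signal was 696 to 7752 on the E16 arrays, against 26483 on this array and at most 538 on the other E13 arrays, and summed interneuron signal was 238 to 954 on the E16 arrays, against 3698 on this array and at most 667 on the other E13 arrays. Endothelial, microglial and meningeal markers, 0 of which were tested, summed to at most 66.3, 68.1 and 46.7 at E16 and to 316, 206 and 542 on E13 array 64. Without it the calls of Zfpm2 (-1.42), Tle4 (-0.99), Foxp2 (-0.96), Fezf2 (-0.74, ILMN_2932692) and Crym (1.74) held. The call of Sox5 probe ILMN_1213910 was lost, and the brighter Fezf2 probe was called as well (-0.63).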

How the data were processed

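Total RNA of the FACS-isolated cells was labeled with biotin and measured on Illumina bead arrays. Probe intensities were deposited by the authors background-subtracted and not yet normalized, each beside a detection p-value from the authors. A deposited table of log2 values, quantile-normalized by the authors after outlier probes were removed, holds 16 of the 24 member probes and 15825 probes in all. Scanner software: not given in the sources used here. A further table holds 22 per-sample columns that match no labeled sample, and none was used.

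The 16411 probes detected at p under 0.05 on each of 11 arrays were quantile-normalized and put on the log2 scale. Stage alone was fitted in limma 3.58.1 (R 4.3.3) with a trended prior variance, and p-values were adjusted by Benjamini-Hochberg over these probes. The methods ask for detection in all arrays and remove outlier probes; here the filter ran over the mutant arrays alone and outlier probes were kept, and 586 tested probes are not in the authors' table. The methods used a 2-way ANOVA with genotype, which the mutant arrays alone cannot carry. Single member probes also had a two-sided exact permutation test with 462 splits, not adjusted over probes. The fit was tested on simulated data. Groups came from stage and genotype in the labels and column names. Array numbers could not be tied to replicate numbers, and the methods' 3 litters are not assigned to samples, so p-values would be too small where arrays share a litter. The number of arrays sets the precision.

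Probes were named through the platform annotation (34885 with 1 symbol, 18 with several, 10378 with none), and a RefSeq update changed 0 member symbols. The text names all probes of the 8 genes and of Eomes, the tested relatives and targets, called genes of each list up to 3 each way, and the 2 most similar genes per member. The mention of further called genes was chosen after their values were seen. So was that of uncalled regulators, upper layer factors, other deep layer genes and markers. Listed genes took their brightest tested probe. Some genes stand in several lists and are counted in each, so the lists are not independent. Among them are Reln (targets and Cajal-Retzius markers), Eomes (relatives and IP markers) and Neurog2 (regulators and IP markers). Marker sums instead used deposited signals scaled by the array median, with values below 0 set to 0. They took the brightest probe of each gene on the array, tested or not. The members and lists were chosen with earlier results of these data known. Promoter windows were read with Python 3.11.15 and pandas 2.3.3, and figures drawn with matplotlib 3.10.9. Alternatives were normexp background correction, median scaling, other detection filters (a floor of 16 where undetected probes entered), the authors' table with and without a replicate block, an unmoderated test, no fold threshold, array weights, mean array signal as a covariate and leaving out arrays.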

Additional observations from a re-analysis of the deposited data

Results flagged for a closer look

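In 42 groups of 5 or 6 arrays (the member and Eomes probes at each stage), 3 had 1 array whose gap to the nearest other array took a larger part of the range than Dixon's 95% critical value, where chance gives about 1 in 20, or 2.1 groups. Bcl11b probe ILMN_1223119 on E16 array 95 read 273, against 526 for the next array and 770 for the highest (ratio 0.633). Bcl11b probe ILMN_2611022 on the same array read 3768, against 5464 and 6208 (ratio 0.744). Zfpm2 probe ILMN_2863601 on E13 array 40 read 946, against 1681 for the next array and 1907 for the highest (ratio 0.820), and its log2 fold change was -1.61 without that array.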

How the results depend on the processing

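Across 23 other settings, 4 to 8 member probes were called, against 6 in the fit reported. With no detection filter, with a detection p under 0.01 and with the authors' table it was 4, and 8 with array weights and without E13 array 40. Over all probes 1848 were called, 2943 with no fold threshold, and between 1515 and 1872 with 1 array left out. Zfpm2 (ILMN_2863601) and Tle4 (ILMN_2589792) were called in all 23, and Foxp2 and Crym in the 20 in which they were measured; the authors' table and the stricter detection filter lack them. Fezf2 ILMN_2932692 was lost with no detection filter (adjusted p = 0.0807 from limma), and ILMN_2512430 was called in 9 settings, among them median scaling (-0.70). Sox5 ILMN_1213910 was lost in 10, with a limma adjusted p up to 0.127, and ILMN_2580904 was called in 3, by up to 2.10 without E13 array 40. Eomes ILMN_2570496 was called in 5. The replicate numbers of the labels do not pair the stages (correlations of deviations -0.25 to 0.17). With the replicate block on the authors' table, 4 member probes (4 lower, 0 higher) and 1507 of all probes were called. Signs that turned belonged to uncalled probes near 0. With 1 array left out, these were Bcl11b ILMN_2436183 (-0.11 to 0.063, above 0 at 0.0056 without E13 array 61 and at 0.063 without E16 array 95) and ILMN_2611022 (-0.084 to 0.082, above 0 at 0.013 and 0.082 without the same arrays), Sox5 ILMN_2610223 (-0.28 to 0.11, above 0 without E16 array 95), Tbr1 (-0.012 to 0.46, below 0 without E13 array 37) and Zfpm2 ILMN_2556437 (-0.17 to 0.0037, above 0 without E13 array 64), which also gave 0.031 with detection in 1 stage. The causes were not tested. Signals near the detection limit bound what can be said of Foxp2, Crym and the dim Sox5 probe.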
